A study of Mus musculus with 56 samples.

Results

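The genes described here encode 9 liver enzymes that break down amino acids, namely Tat, Tdo2, Sds, Sdsl, Hal, Hpd, Got1, Gpt2 and Agxt. They were taken by name from the gene table, under a rule that sets no threshold on a measured value, and all 9 were among the 25415 genes tested. The 56 livers came from female C57BL/6J mice, 9 weeks old, held in a cycle of 12 h light and 12 h darkness, and their RNA was sequenced. After 7 days of acclimation, food was given for a further 7 days either in the day (daytime-restricted feeding, DRF) or in the night (nighttime-restricted feeding, NRF, the reference regimen). Collection times were 0, 4, 8, 12, 16, 20 and 24 h from lights on (zeitgeber time, ZT). Each regimen had 4 animals at a time and 28 libraries in all. All groups shared strain, sex and age, and the labels name no transgene or deletion. No group fed without restriction was among the samples.

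The liver removes the nitrogen of dietary amino acids and turns their carbon skeletons into glucose, ketone bodies or carbon dioxide. Aminotransferases pass the amino group to a keto acid, dehydratases and lyases release it as ammonia, and oxygenases open the aromatic rings. Several of these enzymes are known targets of glucocorticoids, glucagon and dietary protein, which makes them common readouts of fasting and feeding in liver.

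Expression is given in scaled counts: whole counts were rebuilt out of the deposited values, and each library was scaled, to totals of between 889718 and 1117740. A scaled count of 1 stood for between 304 and 723 recovered counts, depending on the library, and pairs of libraries of the same group correlated at between 0.964 and 0.990 across genes. The sum of 5 hepatocyte markers (Alb, Apoa1, Ttr, Cps1 and Cyp2e1) lay between 97858 and 157481 in every library. Sums of Kupffer cell markers lay between 478 and 975, those of stellate cells between 549 and 821 and those of sinusoidal endothelium between 269 and 381. Cholangiocyte, lymphocyte and neutrophil sums did not exceed 10.5, 2.90 and 1.71, and the pancreas marker Cela1 lay between 1.58 and 4.73. No measured marker was at 0 in all libraries. The adipocyte markers Adipoq and Plin1 and the pancreas markers Cpa1 and Prss2 were not analysed here. A log2 difference is DRF minus NRF on the scale log2(scaled count + 1), adjusted p-values are limma's with Benjamini-Hochberg adjustment over all 25415 genes, and a gene is called where the adjusted p is under 0.05. In bulk liver, fewer cells of a type and less RNA per cell cannot be told apart.

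All 9 genes are protein-coding. On GRCm38 (GENCODE vM21), the plus-strand genes are Tat at chr8:109990437-109999803, Gpt2 at chr8:85492576-85527560, Sds at chr5:120476526-120483932, Hal at chr10:93488768-93519304 and Agxt at chr1:93135240-93145421. The minus-strand genes are Tdo2 at chr3:81957090-81976202, Sdsl at chr5:120458186-120472810, Hpd at chr5:123171807-123182727 and Got1 at chr19:43499752-43524605. Counts were taken over their exons.

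Per kilobase (kb) of exon, Hpd stood highest among the 9 genes, at a mean level of 927 scaled counts per kb under DRF and 821 under NRF. Tat followed at 290 and 267, and Tdo2 at 254 and 184. Gpt2 (130 and 86.4), Agxt (96.3 and 110), Got1 (83.0 and 51.9), Hal (68.1 and 58.4) and Sds (60.9 and 38.5) formed the middle of the order. Sdsl was far below the rest, at 5.69 and 5.01. The animals' ranges overlapped between neighbours such as Agxt, Got1 and Hal, so their order in the middle is not resolved beyond the spread over time.

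DRF and NRF profiles differed at matched clock times for every one of the 9 genes (limma F test over 7 times, background 42.4% of all genes), although on the deposited values Sdsl and Hpd were not called (adjusted p = 0.0522 and 0.0547). Over 63 comparisons of a gene at a time, 28 were called, 24 of them higher and 4 lower under DRF. Gpt2 was called at 6 of 7 times, Sds at 5, Tdo2 and Agxt at 4, Hal at 3, Tat and Got1 at 2, and Sdsl and Hpd at 1. ZT16, in the dark phase, held the most calls: 7 of 9 genes were higher under DRF and 0 lower, where 8.73% of all genes were called higher and 6.37% lower. At an unadjusted p under 0.05 the numbers at ZT16 were also 7 and 0. Shares of all genes at an unadjusted cut are not given here or below. The members' median log2 difference was 0.69 at ZT16. At the other times, in order from ZT0, it was 0.53, 0.06, 0.17, -0.15, 0.44 and 0.30, against medians over all genes of 0.00 at each time. At ZT20, 5 of 9 were called, all higher under DRF (background 7.66%). At ZT0 and ZT24, Tdo2, Sds and Gpt2 were called, all higher (backgrounds 7.96% and 7.08%). At ZT4, Tat, Hpd and Gpt2 were higher (background 10.8%) and Sds, Hal and Agxt lower under DRF (background 9.49%). At ZT8, Tat and Gpt2 were higher (background 5.74%) and Agxt lower (background 7.27%), and at ZT12 Hal alone was called, higher under DRF (background 7.05%).

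**Figure D1:**
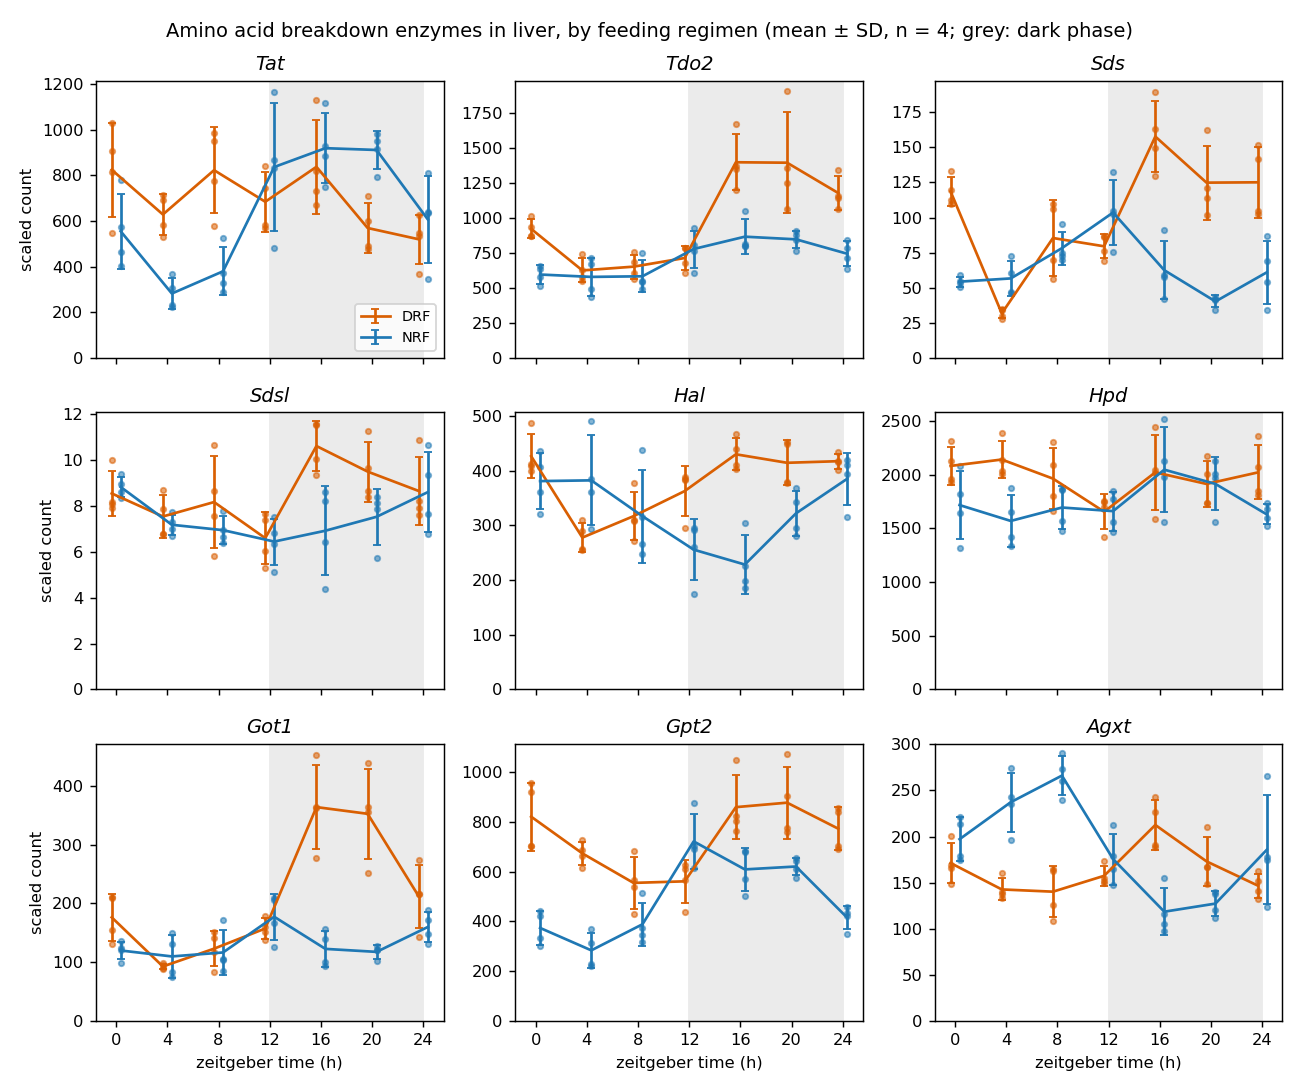
Scaled counts of the 9 genes against zeitgeber time in hours, with points for single animals and lines with bars for the mean ± SD of 4 animals per regimen and time. Got1 under DRF rises to 364 at ZT16 while NRF stays at 122, and Agxt peaks under NRF at ZT8 with 266.

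**Figure D2:**
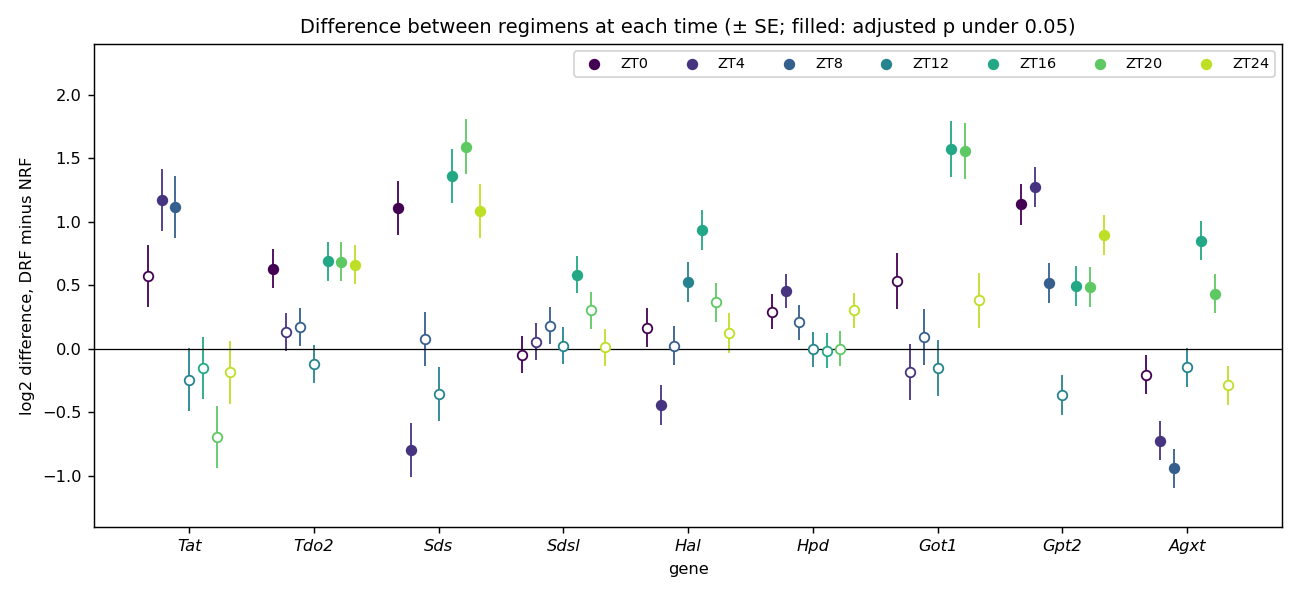
Log2 difference, DRF minus NRF, of each gene at each time with its SE, filled where the adjusted p was under 0.05. The 28 filled points include 24 above 0 and 4 below, the latter being Sds and Hal at ZT4 and Agxt at ZT4 and ZT8.

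Got1 makes cytosolic aspartate aminotransferase, which exchanges amino groups between aspartate and glutamate and takes part in the malate-aspartate shuttle. It showed the largest difference of the 9 genes at ZT16. The 4 DRF livers at ZT16 had 452, 363, 277 and 362 scaled counts, and the 4 NRF livers had 93.6, 139, 101 and 156. At ZT20 the DRF values were 363, 356, 438 and 252, and the NRF values 120, 101, 121 and 127. The lowest DRF liver exceeded the highest NRF liver at both times. Means differed 2.97-fold at ZT16 (log2 1.57 ± 0.22 SE, limma adjusted p = 8.66e-07) and 3.004-fold at ZT20 (log2 1.56 ± 0.22, limma adjusted p = 7.85e-07). At ZT4, ZT8 and ZT12 the groups overlapped, with means of 92.4 and 110, 123 and 116, and 157 and 177 under DRF and NRF. Within DRF the means ran from 92.4 ± 4.72 (SD, n = 4) at ZT4 to 364 ± 71.6 at ZT16, a 3.93-fold range without overlap. Within NRF they ran from 110 ± 37.0 at ZT4 to 177 ± 38.9 at ZT12, and those groups overlapped.

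Gpt2 encodes the mitochondrial alanine aminotransferase, which converts alanine and 2-oxoglutarate to pyruvate and glutamate. DRF livers at ZT4 had 728, 617, 665 and 687 scaled counts, against 315, 369, 229 and 222 in NRF livers. At ZT0 the values were 957, 704, 922 and 704 under DRF and 301, 421, 441 and 331 under NRF. DRF animals lay above all NRF animals at ZT0, ZT4, ZT16, ZT20 and ZT24. The difference was 2.38-fold at ZT4 (log2 1.28 ± 0.16, limma adjusted p = 4.22e-08) and 2.20-fold at ZT0 (log2 1.14 ± 0.16, limma adjusted p = 5.36e-07). It was smaller at ZT8, ZT16 and ZT20, with log2 values of 0.52, 0.50 and 0.49, and each of these calls was lost when certain single libraries were left out. At ZT12 the means were 561 ± 86.2 under DRF and 722 ± 110 under NRF, with overlapping animals (log2 -0.36, limma adjusted p = 0.125).

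Sds and Sdsl lie side by side on chromosome 5 on opposite strands. Serine dehydratase, made from Sds, releases ammonia from serine and threonine and yields pyruvate from serine, and Sdsl encodes a related enzyme. Sds had 119, 109, 133 and 113 scaled counts in DRF livers at ZT0 and only 34.3, 30.2, 27.5 and 35.2 at ZT4. It then climbed to 189, 163, 129 and 149 at ZT16, so that the DRF range over time was 4.96-fold, the widest of the 9 genes. In NRF livers it reached 102, 132, 75.1 and 105 at ZT12 and fell to 41.2, 34.0, 43.5 and 42.4 at ZT20. The sign of the regimen difference thus changed over the day: at ZT4 DRF livers were lower (log2 -0.80 ± 0.21, limma adjusted p = 0.00486), and at ZT20 they were 3.10-fold higher (log2 1.59 ± 0.21, limma adjusted p = 2.58e-07). At ZT0, ZT16 and ZT24 Sds was also higher under DRF, by log2 1.11, 1.36 and 1.08, without overlap between animals. Exons of the opposite-strand genes Gm15690 and Plbd2 cover 29.6% of the exon bases of Sds, and the sources used here do not say whether the counting used strand. Sdsl was low throughout, with group means between 6.45 and 10.6 scaled counts. Its lowest library held 1337 recovered counts, which are not reads and exceed the depth of the study. It was called at ZT16 alone, where DRF livers had 11.6, 11.5, 9.36 and 10.04 and NRF livers 6.44, 8.24, 4.40 and 8.62 (log2 0.58 ± 0.15, limma adjusted p = 0.00418).

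Tdo2 encodes tryptophan 2,3-dioxygenase, the first enzyme of the kynurenine pathway. Its DRF livers had 1675, 1371, 1200 and 1353 scaled counts at ZT16 and 1253, 1358, 1907 and 1069 at ZT20. NRF livers had 799, 1052, 816 and 804 at ZT16 and 841, 766, 882 and 906 at ZT20. No animals overlapped at either time, and DRF means were 1.61-fold higher at ZT16 (log2 0.69 ± 0.15, limma adjusted p = 0.000942). Near-equal differences of 0.63 at ZT0 and 0.66 at ZT24 were called, while at ZT4, ZT8 and ZT12 the groups overlapped and none was called. The lowest mean was at ZT4 under both regimens, at 626 ± 85.8 and 580 ± 134. It was within the spread of the ZT8 means of 653 ± 85.1 and 585 ± 115, so the time of the trough is not resolved.

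Tat makes tyrosine aminotransferase, which starts tyrosine breakdown and is a classical glucocorticoid-induced liver gene. In NRF livers it had 309, 368, 231 and 222 scaled counts at ZT4 and 290, 328, 528 and 373 at ZT8. DRF livers at those times had 692, 528, 581 and 713, and 776, 578, 950 and 986. They lay above the NRF livers at both times, with 2.22-fold higher means at ZT4 (log2 1.17 ± 0.24, limma adjusted p = 0.00032) and 2.17-fold at ZT8 (log2 1.12 ± 0.24, limma adjusted p = 0.000941). At ZT20 the order was the reverse, 569 ± 108 under DRF and 911 ± 82.0 under NRF without overlap, yet the adjusted p stood just above the threshold (log2 -0.69 ± 0.24, limma adjusted p = 0.051). NRF means spanned 3.25-fold between ZT4 and ZT16, and DRF means spanned 1.61-fold.

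Hpd, the hydroxyphenylpyruvate dioxygenase that acts after Tat in tyrosine breakdown, varied least. Its group means lay between 1655 and 2142 scaled counts under DRF and between 1570 and 2047 under NRF. One time was called: DRF livers at ZT4 had 2033, 2138, 2005 and 2392 and NRF livers 1655, 1874, 1415 and 1334 (log2 0.46 ± 0.13, limma adjusted p = 0.0112). The recovered counts of Hpd and Tdo2 were too high to be checked for being whole.

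Hal makes histidase, which removes ammonia from histidine. At ZT16 DRF livers had 402, 410, 467 and 440 scaled counts and NRF livers 198, 226, 185 and 305, with no overlap (log2 0.94 ± 0.16, limma adjusted p = 2.09e-05). The lowest NRF mean and the highest DRF mean fell at that time. Under DRF, 430 ± 29.5 at ZT16 was within the spread of 426 ± 40.3 at ZT0. Under NRF, 228 ± 53.7 at ZT16 was within the spread of 255 ± 56.3 at ZT12, so neither time is resolved. A smaller difference in the same direction was called at ZT12 (log2 0.52 ± 0.16, limma adjusted p = 0.0158). At ZT4 the direction was reversed, 278 ± 27.0 against 382 ± 82.0, but the animals overlapped (log2 -0.44 ± 0.16, limma adjusted p = 0.0381).

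Agxt encodes the alanine-glyoxylate aminotransferase, which clears glyoxylate and also acts on serine in liver. It was the one gene of the 9 that was lower under DRF in the middle of the light phase at 2 called times. NRF livers had 197, 243, 274 and 235 scaled counts at ZT4 and 273, 291, 260 and 240 at ZT8, whereas DRF livers had 139, 160, 138 and 133, and 164, 125, 108 and 163. No animals overlapped, and NRF means were 1.66-fold and 1.90-fold higher (log2 -0.72 ± 0.15, limma adjusted p = 0.000378, and -0.94 ± 0.15, limma adjusted p = 1.57e-05). At ZT16 DRF livers were higher, with 191, 189, 243 and 227 against 105, 116, 97.5 and 155 (log2 0.85 ± 0.15, limma adjusted p = 6.74e-05). The ZT20 call was marginal (log2 0.44 ± 0.15, limma adjusted p = 0.0498).

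Promoters of 3 genes are shown because Tdo2 and Got1 had the most alike profiles under DRF (Pearson r = 0.96 over 7 group means, whose libraries are shared, given as a description) and Agxt had the opposite profile to Tdo2 under NRF (r = -0.93). Each stretch is the 250 bases before the RefSeq start on GRCm38.p6, in the direction of the gene. Tdo2 is chr3:81975729-81975978 on the minus strand, Got1 chr19:43524606-43524855 on the minus strand and Agxt chr1:93134990-93135239 on the plus strand. The Tdo2 window lies within the GENCODE bounds of the gene given above, so the RefSeq and GENCODE starts of Tdo2 differ. Capitals mark matches on either strand to one of the searched motifs: the E-box CACGTG, the D-box TTATGTAA, the cAMP response element TGACGTCA and its 5-base part TGACG, the glucocorticoid receptor core site AGAACA, the nuclear receptor core site AGGTCA, the forkhead motif TGTTTAC, the TATA motif TATAAA and the CAAT motif CCAAT. The 5-base part lies within the full cAMP response element.
Tdo2: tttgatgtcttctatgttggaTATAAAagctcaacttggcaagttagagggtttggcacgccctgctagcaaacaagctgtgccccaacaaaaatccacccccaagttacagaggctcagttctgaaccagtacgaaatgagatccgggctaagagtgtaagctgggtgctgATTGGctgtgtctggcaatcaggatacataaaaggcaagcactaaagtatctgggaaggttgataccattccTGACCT
Got1: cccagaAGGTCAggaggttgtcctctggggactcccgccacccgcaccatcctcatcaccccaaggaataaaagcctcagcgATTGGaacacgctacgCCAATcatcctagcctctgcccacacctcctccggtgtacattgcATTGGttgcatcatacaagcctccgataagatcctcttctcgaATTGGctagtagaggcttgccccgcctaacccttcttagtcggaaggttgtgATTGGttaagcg
Agxt: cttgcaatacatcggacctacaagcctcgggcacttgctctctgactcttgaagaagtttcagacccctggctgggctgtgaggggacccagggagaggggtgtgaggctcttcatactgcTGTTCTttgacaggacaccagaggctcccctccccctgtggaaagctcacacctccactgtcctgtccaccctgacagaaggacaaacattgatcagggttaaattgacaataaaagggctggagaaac

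Promoters were found for 7 of the 9 genes, not for Sds or Sdsl. In the same 250-base window, AGGTCA was found in Tdo2, 6 bases before the start, and in Got1, 244 bases before it, and in 13.8% of 27025 promoters. AGAACA was found in Agxt, 129 bases before the start, and in 16.2% of promoters. CCAAT was found in Tat, Tdo2, Hal and Got1 (34.5% of promoters), in Got1 at 5 places, and TATAAA in Tdo2 and Hal (12.97%). The E-box (in 6.05% of promoters), the D-box (0.862%), the cAMP response element (1.62%), its 5-base part (17.9%) and the forkhead motif (3.09%) matched in none of the 7 windows. A match is a run of letters and not a site.

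A 24-h rhythm was called for 7 of the 9 genes under DRF (background 43.3%) and for 7 under NRF (background 44.9%). Tdo2, Sds, Sdsl, Hal, Gpt2 and Agxt were called under both (background 27.4%). Tat was called under NRF (adjusted p = 3.38e-10) and not under DRF (adjusted p = 0.585), and Got1 under DRF (adjusted p = 9.22e-15) and not under NRF (adjusted p = 1). Hpd was called under neither (adjusted p = 0.16 under DRF and 0.0699 under NRF), as were 39.2% of all genes. These p-values combine an exact rank test and a cosinor F test and are adjusted over all genes. The test of the difference between regimens was called for 8 of 9 genes (limma, background 38.7%), with Sdsl the exception (adjusted p = 0.108).

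Fitted peaks lay close together under DRF and apart under NRF. Under DRF all 7 called genes peaked in the dark phase, between ZT17.3 ± 0.757 h (SE) for Agxt and ZT20.2 ± 0.628 h for Gpt2. Got1 had the largest relative amplitude there, 68.5% of its mean, followed by Sds at 46.7% and Tdo2 at 46.3%. Under NRF, peaks fell at ZT2.13 ± 0.752 h for Hal, ZT5.86 ± 0.405 h for Agxt, ZT10.3 ± 0.915 h for Sds, ZT15.5 ± 0.466 h for Gpt2, ZT16.9 ± 0.446 h for Tat, ZT17.0 ± 0.641 h for Tdo2 and ZT23.6 ± 1.25 h for Sdsl. Of the 6 genes rhythmic under both regimens, fitted peaks lay 11.4 ± 0.859 h apart for Agxt, 8.06 ± 1.09 h for Sds and 7.11 ± 0.942 h for Hal. The gaps were 4.72 ± 1.68 h for Sdsl, 4.67 ± 0.783 h for Gpt2 and 1.85 ± 0.77 h for Tdo2. A rhythm difference was not called for Sdsl (limma adjusted p = 0.108), and the gap of Tdo2 was shorter than the sampling interval. Amplitudes in scaled counts also differed: that of Tdo2 was 449 ± 56.1 under DRF and 165 ± 30.9 under NRF, whereas that of Tat was 70.9 ± 47.0 under DRF and 350 ± 45.6 under NRF. The livers were sampled every 4 h, which bounds the resolution of a peak.

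**Figure D3:**
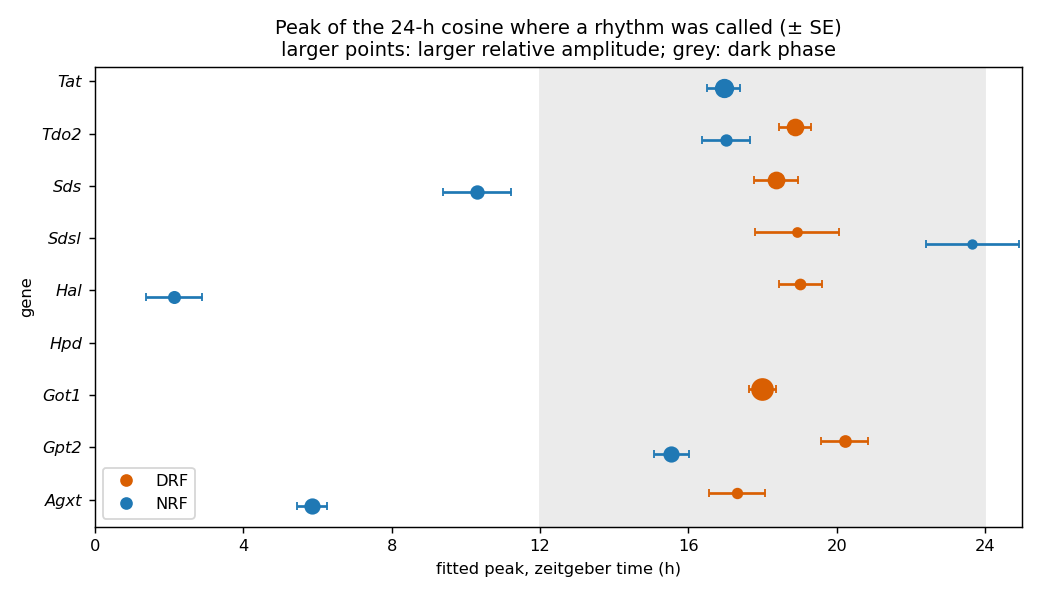
Fitted peak time in zeitgeber hours with its SE for each gene and regimen in which a 24-h rhythm was called, with larger points for a larger relative amplitude. The 7 DRF peaks lie between 17.3 and 20.2 h, and the 7 NRF peaks lie between 2.13 and 23.6 h.

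Food was moved from the dark to the light phase. The next comparison asked whether the DRF rhythm was the NRF rhythm moved by 12 h at equal amplitude. A different amplitude with peaks 12 h apart therefore also counts as a departure. Departure from such an inversion was called for 8 of 9 genes (limma, background 34.1%), with Hpd the exception (adjusted p = 0.322). The least clear of the 8 were Agxt (adjusted p = 0.00718), Sds (adjusted p = 0.00726) and Sdsl (adjusted p = 0.00845). Peaks of Agxt were 11.4 ± 0.859 h apart, with amplitudes of 30.2 ± 6.73 under DRF and 74.5 ± 8.95 under NRF. Tat had no rhythm called under DRF and Got1 none under NRF, so their departures do not speak to timing alone. Setting each DRF time against the NRF time 12 h away, profiles differed for 8 of 9 genes (limma F test over 6 pairs, background 38.3%), again without Hpd (adjusted p = 0.0773). On the deposited values Hpd was called (adjusted p = 0.000993) and Agxt was not (adjusted p = 0.396). Of 54 pairwise comparisons 15 were called, and 11 of them fell on 2 pairs from the phase without food. In DRF ZT16 against NRF ZT4, 6 genes were higher under DRF (background 9.42%) and 0 lower (background 7.73%), also at an unadjusted p under 0.05 for the latter. In DRF ZT20 against NRF ZT8, 4 were higher (background 7.86%) and Agxt was lower (background 8.5%). Got1 differed there by log2 1.76 ± 0.22 and 1.61 ± 0.22, Gpt2 by 1.62 ± 0.16 and 1.19 ± 0.16, and Tdo2 by 1.29 ± 0.15 and 1.24 ± 0.15. Tat differed by 1.57 ± 0.24 in the first of these pairs, and the second was not called (0.60 ± 0.24, limma adjusted p = 0.0885). In DRF ZT4 against NRF ZT16, Tdo2 and Sds were lower under DRF (background 5.81%), Sds by log2 -0.91 ± 0.21. Sds was higher in DRF ZT8 than in NRF ZT20 (log2 1.02 ± 0.21, background 6.43%), and Hal in DRF ZT0 than in NRF ZT12 (log2 0.76 ± 0.16, background 1.27%). In DRF ZT12 against NRF ZT24 limma called 0 of 9 genes (background 1.6%), and 3 had an unadjusted p under 0.05. The exact hours of food are not in the labels, so the pairs match the light and dark phases and not a recorded time of the last meal.

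**Figure D4:**
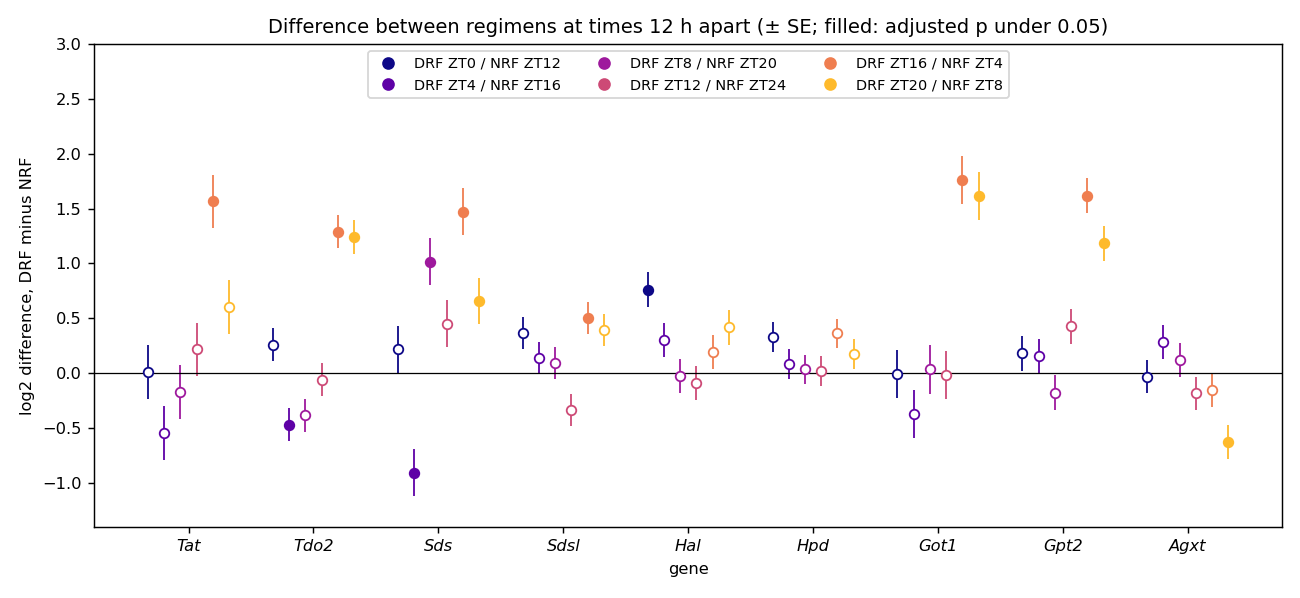
Log2 difference, DRF minus NRF, at times 12 h apart with its SE, filled where the adjusted p was under 0.05. Of 54 points 15 are filled, and the highest is Got1 in DRF ZT16 against NRF ZT4 at 1.76.

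The rhythm-adjusted mean over the day was higher under DRF for 5 of 9 genes and lower for 0 (limma, backgrounds 4.09% and 2.72%). Gpt2 rose by log2 0.56 ± 0.07 (adjusted p = 3.35e-08), Got1 by 0.53 ± 0.10 (adjusted p = 0.000117), Sds by 0.52 ± 0.12 (adjusted p = 0.00367), Tdo2 by 0.37 ± 0.06 (adjusted p = 3.9e-05) and Hal by 0.28 ± 0.06 (adjusted p = 0.00136). Values for Hpd (0.16 ± 0.05, adjusted p = 0.051), Sdsl (0.18 ± 0.06, adjusted p = 0.0593), Tat (0.22 ± 0.10, adjusted p = 0.21) and Agxt (-0.13 ± 0.06, adjusted p = 0.192) did not pass the test. An unadjusted p under 0.05 was seen for 9 of 9, Agxt being the 1 with a lower value under DRF. No share of all genes at that cut is given to set beside this count. The median over the 9 genes was 0.28, against 0.00 over all genes. Sums of markers of liver zones are given beside these values, without a test. The pericentral sum (Glul, Cyp1a2 and Oat) lay between 2026 and 3641 under DRF and between 1423 and 2965 under NRF, with medians of 2752 and 2097. The periportal sum (Cyp2f2, Pck1 and Gls2) lay between 1263 and 2811 and between 1207 and 2493, with medians of 2105 and 1570. Periportal means were 1465 and 1408 at ZT4, 1589 and 1561 at ZT8, 1698 and 2296 at ZT12 and 2331 and 1658 at ZT16 under DRF and NRF, and at ZT0, ZT20 and ZT24 the DRF mean was also the higher. Oat and Gls2 are also on the wider list of amino acid genes given later, with rhythm-adjusted means higher under DRF by log2 0.71 and 0.35. Oat alone averaged 2118 at DRF ZT24 and 823 at NRF ZT0, where the pericentral sums averaged 3177 and 1808. The pericentral sum therefore does not show how Glul and Cyp1a2 differed. The periportal sum likewise does not separate Cyp2f2, Pck1 and Gls2, and neither sum is read here as a measure of liver zones. The part of these sums in the differences of the 9 genes was not tested.

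A 12-h component was called by limma for 0 of 9 genes under DRF (background 4.69%) and for 0 under NRF (background 2.02%). At an unadjusted p under 0.05 there was 1 under DRF, Sds, and 3 under NRF, namely Sds, Got1 and Gpt2. Livers at ZT24 were also set against those at ZT0, which are the same hour of the day in other animals. Limma called 0 of 9 genes under DRF (background 3.05%) and 0 under NRF (background 7.79%). An unadjusted p under 0.05 was seen for 2 genes under DRF, Tat and Tdo2, and for 1 under NRF, Tdo2. Means of Tdo2 were higher at ZT24, 1.28-fold under DRF without overlap (log2 0.35 ± 0.15, limma adjusted p = 0.201). Under NRF they were 1.25-fold higher with overlap (log2 0.32 ± 0.15, limma adjusted p = 0.22). Tat under DRF had 546, 904, 1031 and 816 scaled counts at ZT0 and 370, 548, 626 and 535 at ZT24 (log2 -0.65 ± 0.24, limma adjusted p = 0.132). Libraries also differed in how gene values related to exon length, measured as the Spearman correlation across genes between exon length and deviation from the gene's mean. Under DRF it averaged -0.13, -0.22 and -0.24 at ZT0, ZT4 and ZT8 and 0.13, 0.04, 0.15 and 0.17 from ZT12 to ZT24. Under NRF the averages were -0.18, -0.06 and -0.15, and then 0.04, 0.13, 0.11 and 0.18. The index thus moved with the collection time in both regimens, but it did not follow the hour of day. At ZT0 and ZT24, the same hour, it averaged -0.13 and 0.17 under DRF and -0.18 and 0.18 under NRF. It also differed between times 12 h apart, for instance 0.15 at DRF ZT20 and -0.15 at NRF ZT8. The source of the index was not tested. With the length trend of each library removed, called genes of the 9 again numbered 7 for a rhythm under either regimen, 8 for the departure from inversion and 8 for profiles at times 12 h apart. The shares of all genes called rose to 60.2%, 57.3%, 53.0% and 58.1%. The part of the index in the values of the 9 genes was not tested further.

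The other genes of amino acid breakdown were described as a list of 55 measured genes that holds none of the 9. A 24-h rhythm was called for 39 of 55 under DRF (43.3% of all genes) and 38 under NRF (44.9%), and a rhythm difference for 30 (38.7%). At ZT16, 30 were higher under DRF (8.73% of all genes) and 0 lower (6.37%), and at an unadjusted p under 0.05, 2 were lower. By pathway, those called higher at ZT16 were 11 of 17 for branched-chain amino acids, 4 of 8 for transamination and ammonia release, 3 of 3 for histidine, 3 of 4 for sulfur amino acids, 3 of 4 for serine, glycine and threonine, 2 of 5 for lysine, 2 of 9 for aromatic amino acids, 1 of 3 for proline and 1 of 2 for asparagine. At ZT4, 20 were higher (10.8% of all genes) and 7 lower (9.49%). The rhythm-adjusted mean was called higher for 33 (4.09%) and lower for 1 (2.72%). The list's median log2 range over time was 0.42 under DRF and 0.45 under NRF, below the 0.48 under either regimen of the 7325 genes at or above the lowest mean level of the 9 enzymes. It was 0.67 and 0.77 for the 9 enzymes and 0.31 and 0.32 for all genes.

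Under DRF the widest range among rhythmic genes of the list was that of Csad, a decarboxylase of taurine synthesis, which went from 4.95 ± 0.361 scaled counts at ZT4 to 21.3 ± 5.35 at ZT16. Cdo1, the cysteine dioxygenase of the step before, went from 743 ± 84.6 to 1837 ± 126 at the same times. Gldc, a subunit of the glycine cleavage system, rose from 345 ± 60.8 at ZT0 to 766 ± 78.9 at ZT16. Acmsd, which draws tryptophan breakdown away from NAD synthesis, went from 49.6 ± 10.5 at ZT12 to 113 ± 37.0 at ZT20, and Oat, the ornithine aminotransferase, from 1133 ± 218 at ZT8 to 2118 ± 169 at ZT24. Under NRF, Acmsd had the widest range, 26.9 ± 3.94 at ZT12 to 158 ± 41.0 at ZT20, followed by Gldc (211 ± 35.9 at ZT12, 715 ± 62.5 at ZT20). Amdhd1, a histidine breakdown enzyme after Hal, was at 102 ± 15.5 at ZT16 and 264 ± 23.3 at ZT4. Amt, another part of glycine cleavage, was at 9.81 ± 1.35 at ZT16 and 26.4 ± 4.85 at ZT8. Csad varied more between animals under NRF, at 8.38 ± 4.88 at ZT16 and 19.7 ± 13.99 at ZT8. Like Hal, Amdhd1 had its lowest mean at ZT16 in NRF livers, though for Hal ZT16 was not resolved from ZT12. The exon length of Gldc was searched on the values, and the counts of Cdo1 and Oat were too high to be checked for being whole.

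Correlations between enzymes over the 7 group means of a regimen, which share libraries, are given as a description. Tdo2 and Got1 correlated at 0.96 under DRF and 0.43 under NRF, Sds and Hal at 0.93 and -0.46, and Tdo2 and Hal at 0.86 and -0.61. Tat and Gpt2 went the other way, at -0.19 under DRF and 0.92 under NRF, as did Tat and Tdo2 at -0.23 and 0.92. Tdo2 and Gpt2 correlated at 0.86 and 0.87. Over all 14 group means, the genes most like each enzyme were searched among 12674 genes at or above the median level. Those for Tdo2 were Fam234b (r = 0.97) and Adk (0.96), for Gpt2 Ahcy (0.95) and Slc37a4 (0.94), and for Got1 Arg1 (0.93) and Zbed5 (0.92). Those for Tat were Gm14403 (0.94) and Tsc22d3 (0.92), and for Sds Heph (0.93) and Hipk3 (0.91). Agxt was closest to Cryzl1 (0.91) and Hs1bp3 (0.91), Hpd to Gm4737 (0.92) and Gm9826 (0.91), Sdsl to Cth (0.90) and Serpina1b (0.87), and Hal to Adam11 (0.89) and Gm45086 (0.87).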

How the data were processed

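The authors depleted ribosomal RNA, made strand-specific libraries and sequenced them in pairs, per the labels, whose molecule field instead says polyA RNA. The submitters' processing notes name CASAVA 1.8, featureCounts 1.5.0-p3, mm10 and GRCm38.p6. The aligner is not given in the sources used here. The deposited gene values, named TPM, are treated as a score, since value times exon length followed a·ln(1 + f·k) per library with whole k. Counts k were recovered with GENCODE vM21 exon lengths. In genes left out of the fit, between 96.2% and 99.2% of values lay within 0.05 of a whole number (10% by chance). Checks at that tolerance stopped at counts of 20000, which covered Sdsl in 56 libraries and Sds in 7. Tat, Hal, Got1, Gpt2 and Agxt were judged only at a tolerance of 0.2, which chance meets more often. Their counts up to 200000 were judged, in 8, 35, 52, 10 and 56 libraries in that order. All judged values of these genes and of Sds and Sdsl passed, and Hpd and Tdo2 were not judged. Recovered counts exceed the study's stated depth and are not called reads. The product f·k is the scaled count, in which 1 unit stands for 304 to 723 recovered counts. The design assumed linear TPM, and its tests were kept. The deposited transcript and circRNA tables were not used.

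Tests used limma 3.58.1 (trend, robust) in R 4.3.3 on log2(scaled count + 1) over 25415 genes whose deposited values averaged 0.1 or more. Rhythms combined an exact rank test over 12 cosine templates and a cosinor F test by Fisher's method, which treats dependent tests as independent. Peaks and amplitudes are least-squares cosinor fits on scaled counts. The count recovery, the difference at a single time, the 24-h rhythm under NRF, the rhythm difference and the rank test were tested on simulated data. The members and lists were chosen with earlier results of these data known. All 9 members are named. Of the wider list, the 5 rhythmic genes with the widest range under each regimen are named, as are the 2 genes most like each member. The labels give 4 samples per group, taken here as separate animals, and no sequencing batch.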

Additional observations from a re-analysis of the deposited data

Results flagged for a closer look

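Within the 126 groups of 4 animals (9 genes in 14 groups), 4 had an animal set apart from the other 3 by Dixon's criterion, which chance meets in about 1 of 20 groups. Tdo2 was at 1052 scaled counts in NRF ZT16 replicate 2, where the others lay between 799 and 816. Sdsl was at 10.02 in DRF ZT0 replicate 4, against 7.90 to 8.17. Hal was at 486 in DRF ZT0 replicate 1, against 398 to 411, and at 295 in DRF ZT12 replicate 4, against 382 to 388.

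The 24-h rhythm differed between the regimens by limma's test of the difference in 8 genes. The adjusted p-values were 1.06e-10 for Agxt, 1.34e-06 for Gpt2, 2.14e-06 for Got1, 3.44e-06 for Hal, 3.62e-06 for Sds, 1.51e-05 for Tat, 0.00104 for Tdo2 and 0.0222 for Hpd. The call for Hpd was lost without NRF ZT16 replicate 3 (adjusted p = 0.0593).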

How the results depend on the processing

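Of the 12 counts of called genes, 9 stayed within 1.5 times their value under every alternative run. The exceptions were the 12-h component under NRF, with 0 to 1 genes when one library was left out (1 without NRF ZT4 replicate 2, Gpt2, adjusted p = 0.0334), and ZT24 against ZT0, with 1 gene under DRF both on the deposited values (7.30% of all genes) and with the length trend removed (21.1%, Tat, log2 -0.67, adjusted p = 0.0409), and 6 genes under NRF on the deposited values (23.9%, against 7.79%). There Hpd changed sign, from -0.06 to 0.095. The deposited values are compressed by a logarithm, and their part in these changes was not tested.

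Leaving out one library gave 25 to 30 of 63 regimen calls, 7 to 8 rhythms in either regimen, 7 to 9 rhythm differences, 8 departures from inversion and 5 to 7 mean differences. The ZT20 call for Agxt was lost in 40 of 56 omissions (adjusted p up to 0.205), and Tat at ZT20 was called in 13, as it was with a pseudocount of 0.1 (0.0494), a filter at a mean deposited value of 1 (0.0478), median-of-ratios scaling (0.0485) and the length trend removed (0.05 after rounding). Means of Hpd and Sdsl were called in 17 and 8 omissions, and an NRF rhythm of Hpd in 8 and with median-of-ratios scaling (0.0164). Hal at ZT4 was lost without DRF replicates 1, 2 or 3 or NRF replicates 1, 2 or 4 of that time (0.0519 to 0.191) and with the length trend removed (0.0648), and Hal at ZT12 without NRF replicate 1 (0.141). Gpt2 was lost at ZT8 without DRF replicates 3 or 4 or NRF replicates 1, 2 or 4 (0.0521 to 0.118), at ZT16 without DRF replicate 1 or NRF replicates 1 or 3 (0.0679 to 0.124), and at ZT20 without DRF replicates 2 or 3 or NRF replicates 1 or 2 (0.0661 to 0.154). Hpd at ZT4 was lost without replicate 4 of either regimen (0.0501 and 0.0604), and Sdsl at ZT16 without NRF replicate 3 (0.0575). The clock-time profile of Sdsl was lost without replicate 1 or 2 of DRF ZT16 or replicate 1 or 3 of NRF ZT16 (0.0544 to 0.104). Its DRF rhythm was lost with the rank test alone (0.0746) and the cosinor alone (0.0503). On the deposited values 23 of 63 calls and 6 rhythm differences were made, and the departure of Agxt from inversion was lost (0.964) and that of Hpd gained (0.000332). The profile of Hpd at times 12 h apart was gained without DRF ZT16 replicate 3, NRF ZT16 replicate 3 or NRF ZT4 replicate 2 (0.0285 to 0.0439). Removing the length trend raised the share of all genes called in DRF ZT4 against NRF ZT16 from 14.6% to 35.4%, in DRF ZT8 against NRF ZT20 from 11.5% to 30.9% and in DRF ZT20 against NRF ZT8 from 16.4% to 32.3%.

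Same-numbered libraries were taken as different animals. Their deviations from group means correlated at 0.0035 on average, from -0.388 to 0.318, and 37 of 364 pairs exceeded 0.1. Such an average cannot show whether part of the libraries shared a batch. With a replicate block, 28 of 63 calls were made, Agxt at ZT20 being lost (0.0603) and Tat at ZT20 gained (0.0413), and Hpd was rhythmic under NRF (0.0118). The block changed no other call among those recomputed. Precision is limited by 4 animals per group.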
